A study of Arabidopsis thaliana with 13 samples.

Results

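AT2G38870 and PDF2.1 are a pair of Arabidopsis thaliana genes for small defence proteins, and their signals were followed in roots that overexpress the peptide gene CLE3 and in roots that carry a mutation in CLV1. The pair was selected on its signals in these same arrays, in the CLE3 overexpression and clv1-15 comparisons, out of 13513 probe sets that the platform table ties to 1 gene. Each of the 2 genes has 1 probe set. Differences in those comparisons are therefore given as descriptions, without a test, and tests are kept for line against line and for Col-0 against Ler.

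AT2G38870 encodes a serine protease inhibitor of the PR-6 family, whose members resemble the potato type I inhibitors and block serine proteases, including those that microbes and insects use against plant tissue. PDF2.1 encodes a plant defensin, a short peptide folded around several disulphide bridges. Defensins as a class are known for activity against fungi, and several are also made in healthy tissue. CLE3 belongs to the CLE family of secreted peptide signals, and CLAVATA1 (CLV1) is a receptor kinase at the cell surface through which such peptides act. In roots short of nitrogen, CLE peptides and CLV1 are known to restrain the outgrowth of lateral roots.

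The study hybridised whole-root RNA to 13 ATH1 arrays. Lines 12-1 and 17-3 overexpress CLE3 in the Col-0 accession (CLE3ox, n = 2 arrays each) and were set against wild-type Col-0 (n = 3). The mutant clv1-15 (n = 3) and its wild type Ler (n = 3) share the Landsberg erecta background. All plants were 10 days old. They had grown at 22 °C with 16 h of light and 8 h of dark, and the MGRL medium held 1% sucrose and 0.1 mM KNO3. The promoter that drives CLE3 is not given in the sources used here, and clv1-15 is 1 allele of CLV1. Values are MAS5 signals, a linear brightness per probe set that was scaled on each array to a trimmed mean of 500.0, and array medians lay between 189.8 and 200.1. No probe set is named for CLE3 or CLV1 (0 each), so the targeted genes could not be checked by name.

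AT2G38870 lies on chromosome 2, at 16236257 to 16237280 in the TAIR10.1 annotation. Its signal was 1132.5 and 966.9 on the arrays of line 12-1 and 1143.6 and 1105.4 on those of line 17-3, against 2034.5, 2383.9 and 2514 on the Col-0 arrays. All 4 overexpression arrays lay below all 3 Col-0 arrays, and the lowest Col-0 value was 1.78 times the highest overexpression value. The share of all tested probe sets whose arrays lay apart in this way, here or in the comparisons below, was not counted. The mean over both lines was 1087.1 ± 81.7 (SD, n = 4), which is 47.0% of the Col-0 mean of 2310.8 ± 248.0 (n = 3). In whole roots, fewer cells of a type and less RNA per cell cannot be told apart.

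In the mutant the same gene was lower as well. Its signal was 422.7, 405.5 and 388.6 in clv1-15, against 819.7, 902.2 and 835.4 in Ler. The groups did not overlap, and the clv1-15 mean of 405.6 ± 17.1 (SD, n = 3) was 47.6% of the Ler mean of 852.4 ± 43.8 (n = 3). The percentages of the own wild type were thus within 1 point of each other in CLE3ox and in clv1-15.

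PDF2.1 (AT2G02120) also lies on chromosome 2, at 538250 to 539123 in TAIR10.1, and its values ran in opposite directions in the CLE3ox and clv1-15 comparisons. Its signal was 160.2 and 165.2 in line 12-1 and 191.4 and 275.7 in line 17-3, against 105.8, 117.5 and 128.5 in Col-0. Every overexpression array was above every Col-0 array, though the gap between the nearest arrays was small, at 1.25 times. The mean was 198.1 ± 53.5 (SD, n = 4) over both lines and 117.3 ± 11.4 (n = 3) in Col-0, a ratio of 1.69.

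In the mutant the PDF2.1 signal was 38.9, 18.6 and 19.1 in clv1-15, against 156.8, 144.6 and 134.2 in Ler, with no overlap. The clv1-15 mean was 25.5 ± 11.6 (SD, n = 3), or 17.6% of the Ler mean of 145.2 ± 11.3 (n = 3). All 3 mutant values lay under 51.7, the signal below which the mean of a probe set removed it from the tests, so the mutant level lies among signals too low to be tested on their own.

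**Figure D1:**
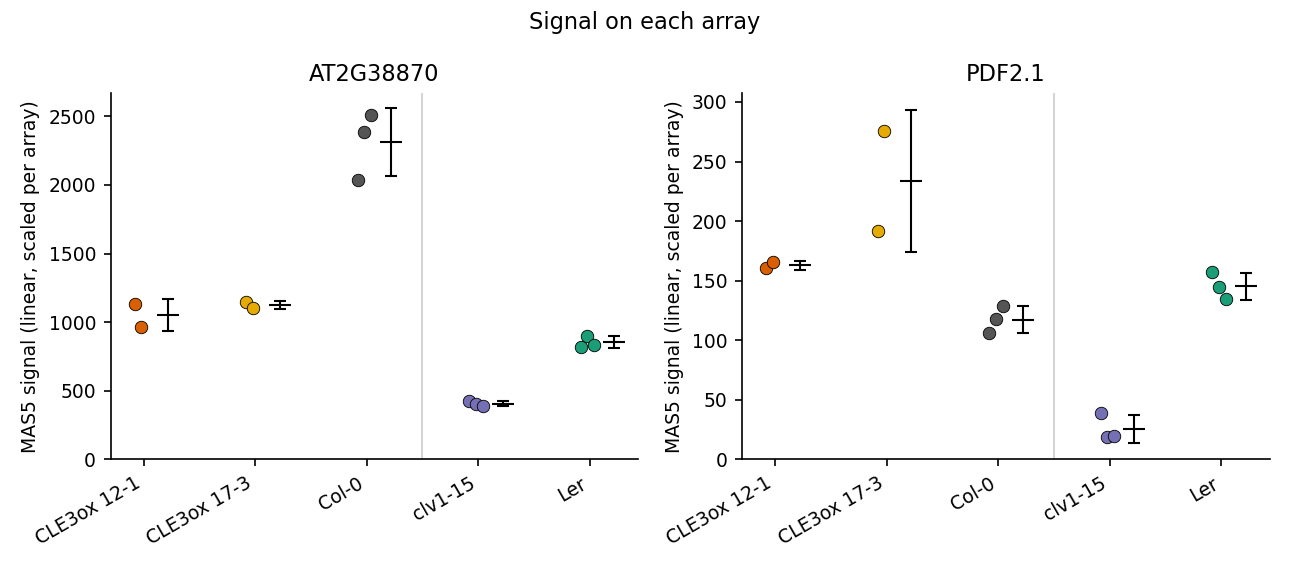
MAS5 signal of AT2G38870 (left) and PDF2.1 (right) on each of the 13 arrays by group, with points for arrays and horizontal bars with whiskers for the mean and SD. AT2G38870 was lower in both CLE3ox lines than in Col-0 and lower in clv1-15 than in Ler, whereas PDF2.1 was above Col-0 in both lines and near the bottom of the scale in clv1-15.

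On the log2(signal + 16) scale, on which all fits were made, AT2G38870 differed by -1.07 ± 0.08 (SE) in CLE3ox against Col-0 and by -1.04 ± 0.09 in clv1-15 against Ler. The difference between these 2 effects was -0.03 ± 0.12. PDF2.1 differed by 0.66 ± 0.17 in CLE3ox and by -1.99 ± 0.18 in clv1-15, and the difference between its 2 effects was 2.65 ± 0.24. No array enters both of these comparisons. Since the pair was chosen for these differences, no p-value is attached to them.

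The added 16 keeps faint signals from dominating, and it matters most for the mutant value of PDF2.1. The clv1-15 mean was 5.69-fold below the Ler mean on the plain signal, against 3.97-fold on the log2(signal + 16) scale. With 1 in place of 16 the log2 difference was -2.54, and with 64 it was -1.23. The size of this difference therefore depends on the constant. Its direction could not, because every clv1-15 array lay below every Ler array.

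Across the 15922 probe sets tested, both genes stood near the ends of the distribution that led to their choice. In CLE3ox against Col-0, 2.44% of the tested probe sets passed a limma adjusted p of 0.05, and 15.3% did in clv1-15 against Ler. AT2G38870 ranked 26 from the lowest log2 fold change in CLE3ox and 68 from the lowest in clv1-15. It was the 1 probe set of those tested with values this low in both. PDF2.1 ranked 77 from the highest in CLE3ox and 8 from the lowest in clv1-15, and 5 probe sets, itself included, were at least as high in CLE3ox and as low in clv1-15. By sign alone, 3740 of the tested probe sets had negative values in both contrasts, the signs of AT2G38870. The signs of PDF2.1, positive in CLE3ox and negative in clv1-15, were shared by 4797. The ranks and joint counts restate the values on which the pair was chosen, so they do not measure how rare such values are.

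**Figure D2:**
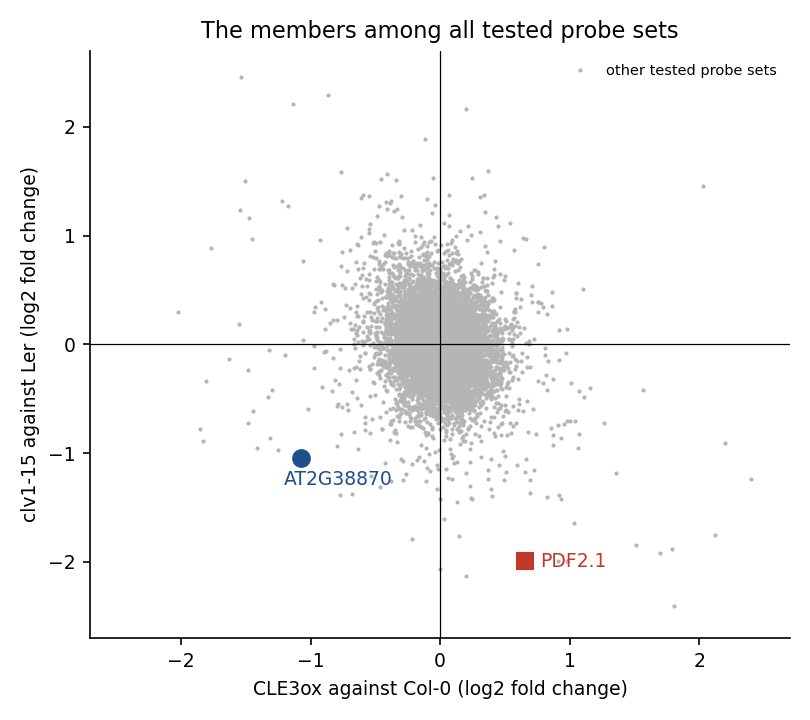
Log2 fold change in CLE3ox against Col-0 (horizontal axis) and in clv1-15 against Ler (vertical axis) for the tested probe sets, with AT2G38870 and PDF2.1 marked; 3 probe sets lie beyond the axes, which end at 2.7. AT2G38870 sits in the lower left, at -1.07 and -1.04, and PDF2.1 in the lower right, at 0.66 and -1.99.

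The lines were compared with each other to see whether the genes had like signals in both overexpression lines. AT2G38870 averaged 1124.5 ± 27.0 (SD, n = 2) in line 17-3 and 1049.7 ± 117.1 (n = 2) in line 12-1, and the arrays of the lines overlapped. The log2 difference of 0.10 ± 0.11 (SE) did not pass (limma adjusted p = 0.95), with a 95% interval of -0.13 to 0.34. PDF2.1 averaged 233.6 ± 59.6 in line 17-3 and 162.7 ± 3.5 in line 12-1. Here the arrays did not overlap, but the difference of 0.46 ± 0.22 did not pass (limma adjusted p = 0.72), and its interval of 0.0012 to 0.92 reaches from almost no difference to a wide one. Neither gene passed in a comparison in which 0.264% of the tested probe sets did.

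Against Col-0, the single lines gave -1.13 ± 0.10 and -1.02 ± 0.10 (SE, lines 12-1 and 17-3) for AT2G38870, and 0.43 ± 0.20 and 0.89 ± 0.20 for PDF2.1, on the log2(signal + 16) scale. All 3 Col-0 arrays serve both lines. The spread of PDF2.1 in line 17-3 rests on 1 array, since its values there were 191.4 and 275.7. Without the second array of that line its value against Col-0 was 0.64, and without the first it was 1.13.

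Signals of the bioD spike-in, an added bacterial transcript, fell into a lower range on 10 arrays and a higher one, above 3500, on the second array of each line and the third Col-0 array. Within the higher range AT2G38870 differed by -1.27 in CLE3ox against Col-0 (3 arrays) and within the lower range by -0.94 (4 arrays). PDF2.1 gave 0.67 and 0.58 in the same ranges. For both genes all CLE3ox arrays lay on the same side of all Col-0 arrays. The direction within each range was therefore fixed beforehand, and only the sizes could differ. All clv1-15 and Ler arrays lay in the lower range.

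**Figure D3:**
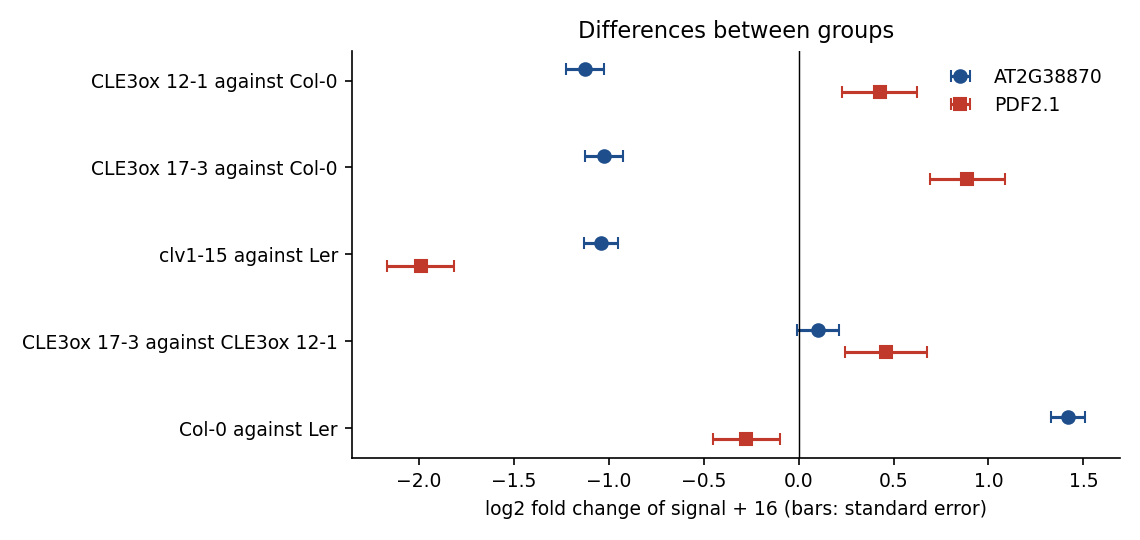
Log2 fold change of AT2G38870 (circles) and PDF2.1 (squares) in 5 comparisons, with standard errors from the common fit as bars. AT2G38870 is near -1 in both lines and in clv1-15, and PDF2.1 is positive in both lines and at -1.99 in clv1-15; only the lower 2 comparisons carry a test.

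The wild types were compared to place both genes between accessions. AT2G38870 was higher in Col-0 than in Ler, at 2310.8 ± 248.0 against 852.4 ± 43.8 (SD, n = 3 each). The lowest Col-0 array was 2.26 times the highest Ler array, and the log2 difference of 1.42 ± 0.09 (SE) passed (limma adjusted p = 5.48e-09). PDF2.1 averaged 117.3 ± 11.4 in Col-0 and 145.2 ± 11.3 in Ler, and its difference of -0.28 ± 0.18 did not pass (limma adjusted p = 0.22, 95% interval -0.65 to 0.10). In this comparison 45.3% of the tested probe sets passed, so a difference between the accessions is common on these arrays. The Col-0 and Ler arrays also enter the contrasts that chose the pair. Whether the accessions differ in sequence under the probes was not tested.

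The order of the 5 group means differed between the genes. For AT2G38870 it ran from Col-0 through line 17-3, line 12-1 and Ler down to clv1-15, and lines 17-3 and 12-1 were the one pair of neighbours in that order whose arrays overlapped. The mean of both CLE3ox lines was 1.28 times the Ler mean, with 1.07 times between the nearest arrays. For PDF2.1 the order ran from line 17-3 through line 12-1, Ler and Col-0 down to clv1-15. None of its neighbours overlapped, yet line 12-1 and Ler were separated by 1.02 times between their nearest arrays and Ler and Col-0 by 1.04 times. The share of all tested probe sets with groups that lie apart in this way was not counted. Parts of both orders rest on the contrasts that chose the pair. Lines 17-3 and 12-1, and Ler and Col-0, lay apart in PDF2.1 without passing a test (limma adjusted p = 0.72 and 0.22). The level in clv1-15 was the lowest of the 5 for both genes.

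Neighbouring genes on chromosome 2 were examined, since both genes lie among relatives. PDF2.1 sits in a row of defensin genes: LCR69 (also called PDF2.2) starts at 528179, LCR68 (PDF2.3) at 539898, 774 bases beyond the end of PDF2.1, and LCR72 (PDF2.6) at 544647. LCR68 averaged 7915.5 ± 514.3 in clv1-15 and 9666.8 ± 862.4 in Ler (SD, n = 3 each). It fell in clv1-15 by 0.29 on the log2 scale (limma adjusted p = 0.016), and the call ended without the last clv1-15 array or the second or last Ler array (adjusted p up to 0.066). In CLE3ox its value was 0.03 (adjusted p = 0.91).

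LCR69 averaged 7962.1 ± 607.2 in clv1-15 and 8842.1 ± 647.0 in Ler, with a log2 difference of -0.15 ± 0.07 (limma adjusted p = 0.16). In CLE3ox against Col-0 it had 0.11 ± 0.07 (adjusted p = 0.46). Between the lines it was higher in line 17-3, at 7627.7 ± 30.7 against 5524.4 ± 59.1 in line 12-1 (n = 2 each). That difference of 0.46 ± 0.09 passed (limma adjusted p = 0.028). The call was lost in 9 of 14 alternatives, among them the removal of any 1 of the 4 arrays (adjusted p up to 0.22). LCR72 lay below the filter on low signals. Both LCR69 and LCR68 were lower in Col-0 than in Ler, by -0.56 ± 0.07 and -0.58 ± 0.07 (adjusted p = 1.06e-05 and 1.04e-05). How far the probes of these related genes bind each other's transcripts was not tested.

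Next to AT2G38870, YLS5 ends 889 bases before it. YLS5 encodes a protein of the DJ-1 family and was named for its expression in yellowing leaves. Its signal averaged 1604.8 ± 148.3 in line 12-1 and 1659.2 ± 60.7 in line 17-3 (SD, n = 2 each), against 2273.6 ± 222.0 in Col-0 (n = 3). YLS5 fell in CLE3ox by 0.47 on the log2 scale (limma adjusted p = 0.0066), and the call held in all 17 alternatives tried. In clv1-15 its mean was 1309.2 ± 93.7, against 1599.5 ± 139.0 in Ler, a difference of -0.28 ± 0.09 with an adjusted p of 0.047 by limma that was lost in 11 of 16 alternatives, among them the removal of any 1 of the 6 arrays. Like AT2G38870 it was higher in Col-0 than in Ler, by 0.50 ± 0.09 (adjusted p = 0.00037). Of all tested probe sets 45.3% passed in that comparison.

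The other measured neighbours gave mixed values, and AT2G38830, AT2G38890 and AT2G38905 lay below the filter. AT2G38820 had 0.13 in CLE3ox and 0.14 in clv1-15 (limma adjusted p = 0.77 and 0.60). AT2G38840 has 2 probe sets that disagreed: in clv1-15 one had -0.09 (adjusted p = 0.73) and the other -0.56 (0.039), while in CLE3ox they had -0.39 (0.17) and -0.16 (0.73). The call at 0.039 was not followed through the alternatives. ETL1, on the PDF2.1 side, had -0.01 and -0.25 (adjusted p = 0.96 and 0.084). In Col-0 against Ler, AT2G38820 had -0.74 (limma adjusted p = 0.0019), a sign opposite to that of AT2G38870 and YLS5. The probe sets of AT2G38840 had 0.17 (0.35) and -0.67 (0.0054) there, in the order used above, and ETL1 had 0.20 (0.090).

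**Figure D4:**
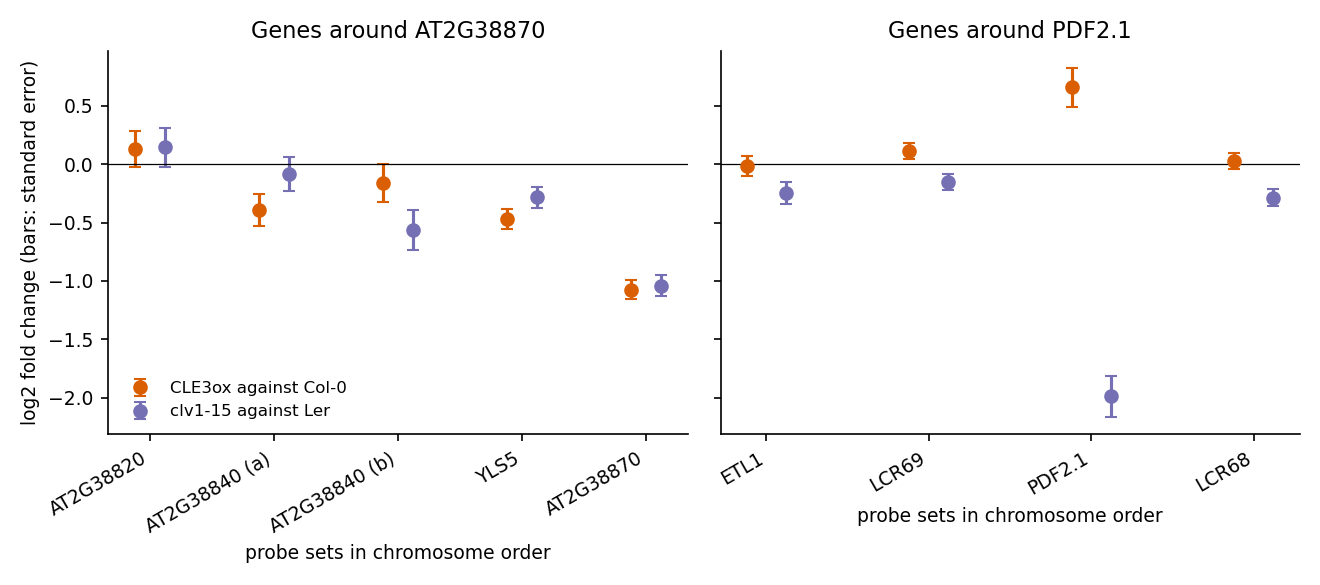
Log2 fold change with standard error in CLE3ox against Col-0 and in clv1-15 against Ler for the tested probe sets within 5 annotated genes of AT2G38870 (left) and PDF2.1 (right), in chromosome order; a and b mark the probe sets of AT2G38840. YLS5 is below 0 in both contrasts, as is AT2G38870, and the defensin genes LCR69 and LCR68 stay within 0.3 of 0 beside PDF2.1.

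Relatives elsewhere were few among the tested probe sets. Of 6 genes of the PR-6 inhibitor family, 3 had a named probe set, and AT2G38900 and AT3G46860 lay below the filter, with signals of 1.3 to 33.5 over all arrays. Of 13 plant defensin genes, 10 had a named probe set. Beside PDF2.1, LCR68, LCR69 and PDF2.5 were tested, while PDF1.1, PDF1.2, PDF1.2b, PDF1.4, PDF2.4 and PDF2.6 lay below the filter. PDF1.2 is the standard marker of jasmonate and ethylene defence. Of the 3 tested relatives 0 rose and 0 fell in CLE3ox, and 1, LCR68, fell in clv1-15. Of all tested probe sets 2.44% and 15.3% passed in these contrasts, and 3 genes are too few to differ from those shares. Their median log2 fold change was 0.03 in CLE3ox and -0.15 in clv1-15, against 0.01 and -0.02 over all tested probe sets.

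PDF2.5, a defensin gene on chromosome 5, averaged 1009.5 ± 143.6 in line 12-1 and 843.4 ± 139.5 in line 17-3 (SD, n = 2 each) and 1010.0 ± 57.4 in Col-0 (n = 3). Its log2 differences were -0.14 ± 0.11 in CLE3ox and -0.06 ± 0.11 in clv1-15 (limma adjusted p = 0.63 and 0.77). Other classes of protease inhibitor were represented by SERPIN1, which encodes a serine protease inhibitor of another fold, and CYS1, a cystatin gene whose product inhibits cysteine proteases. SERPIN1 had 0.04 ± 0.08 in CLE3ox and -0.07 ± 0.09 in clv1-15 (adjusted p = 0.89 and 0.61). CYS1 had 0.09 ± 0.10 and -0.04 ± 0.10 (adjusted p = 0.74 and 0.85). Of these 2 genes, 0 passed in either contrast, in which 2.44% and 15.3% of all tested probe sets did. A count over 2 genes cannot be told apart from those shares. THI2.2, listed with them, lay below the filter.

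Among 76 defensin-like genes listed by symbol, 3 had a named probe set (LCR24, LCR59 and LCR80), all below the filter.

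Few genes of the hormone pathways that often control such proteins could be found by name, and 8730 probe sets carry no gene in the platform table. Of the 15 listed jasmonate and ethylene genes, 1 (THI2.1) had a named probe set, which lay below the filter. Of the 10 listed salicylate genes 1 did, WRKY53, a transcription factor gene. It averaged 56.5 ± 15.0 in clv1-15 and 96.7 ± 10.7 in Ler (SD, n = 3 each) and fell by 0.65 (limma adjusted p = 0.023). That call was lost without the first or second clv1-15 array or the first or last Ler array (adjusted p up to 0.10). Of all tested probe sets 15.3% passed in clv1-15 against Ler. The WRKY53 signals in clv1-15, 42.5 to 72.3, lay on both sides of the filter limit of 51.7. In CLE3ox against Col-0 WRKY53 had 0.05 ± 0.17 (limma adjusted p = 0.93).

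As a check of the tissue, 2 of 18 listed root markers (EXPA7 and EXPA18, expansins of root hairs) and 2 of 14 shoot markers (RCA and LHCB4.1, of photosynthesis) had a named probe set. EXPA7 and EXPA18 averaged 954.1 and 1287.7 in clv1-15 and 804.9 and 805.0 in Ler. The summed shoot signal was 673.8 to 800.8 in line 12-1, 1006.2 to 1022.9 in line 17-3 and 701.7 to 773.9 in Col-0. It was 1436.9 to 1579.5 in clv1-15 and 912 to 1247.1 in Ler. The summed root signal was 3290.3 to 3292.7 in line 12-1, 2641.5 to 2834.9 in line 17-3 and 3374.4 to 3875.1 in Col-0. It was 2096.5 to 2378.4 in clv1-15 and 1503.4 to 1765 in Ler. RCA and LHCB4.1 rose in clv1-15 by 0.49 and 0.43 on the log2 scale (limma adjusted p = 0.014 and 0.0066), EXPA18 rose by 0.68 (0.00059) and EXPA7 had 0.24 (0.085). The RCA call was lost without the last clv1-15 array (adjusted p = 0.053) or the first Ler array (0.065). In Col-0 against Ler, EXPA7 and EXPA18 had 1.07 and 1.29 (limma adjusted p = 1.48e-07 and 8.11e-08). There RCA had -1.04 (6.13e-06) and LHCB4.1 had 0.05 (0.68). The part of these differences in the values of AT2G38870 and PDF2.1 was not tested.

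The genes most like each member were ranked by Pearson's r of log2(signal + 16) over the 13 arrays, among 8687 other tested single-gene probe sets. For AT2G38870 these were AT5G42830 (r = 0.96), AT4G12500 (0.96), ATGLR1.2 (0.95), which encodes a glutamate receptor-like channel, CHI (0.95), a chitinase gene, and AT1G18390 (0.95). CHI averaged 354.4 ± 72.3 in line 12-1 and 448.2 ± 27.3 in line 17-3 (n = 2 each), against 825.1 ± 81.7 in Col-0 (n = 3). It averaged 115.2 ± 12.97 in clv1-15 and 183.7 ± 32.4 in Ler (n = 3 each), the same order of conditions as AT2G38870. Since CHI was picked for its r over these same arrays, the like order adds nothing to that r. The opposite pattern was closest in AT2G38600 (r = -0.96), AT3G26360 (-0.93) and AT1G55360 (-0.93).

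For PDF2.1 the most alike were AT1G19715 (r = 0.97), a jacalin lectin gene, AT2G47890 (0.94), of the B-box zinc finger family, AT3G27340 (0.94), AT2G38950 (0.94) and the organic cation transporter gene OCT1 (0.93). AT1G19715 averaged 247.5 ± 53.7 in line 12-1 and 278.8 ± 58.1 in line 17-3, against 194.9 ± 32.2 in Col-0. It averaged 79.3 ± 10.5 in clv1-15 and 235.2 ± 37.3 in Ler. The most opposed were MSRB9 (r = -0.95), a methionine sulphoxide reductase gene, AT5G40960 (-0.95) and AT2G20230 (-0.94). These coefficients describe arrays that share accession and genotype within groups, and replicates are not separate conditions.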

How the data were processed

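Whole-root RNA of 13 samples was measured on Affymetrix ATH1 arrays. The values are the authors' deposited intensities, linear signals per probe set made with MAS5 per the submitters' processing notes (version not given in the sources used here). They had been scaled, as the 2% trimmed mean of each array was 500.0. No 2 arrays held identical values. The number of arrays limits the precision.

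Each signal was converted to log2(signal + 16). Of 22810 probe sets, 64 controls and then the 30% with the lowest mean were removed, leaving 15922. All 5 groups entered one limma 3.58.1 fit (R 4.3.3, eBayes with a trend). P-values were adjusted by Benjamini-Hochberg across the 15922, with a threshold of 0.05. CLE3ox denotes the average of lines 12-1 and 17-3. The fit was tested on simulated data. The titles call the samples biological replicates, but separate cultures or pools are not described, so p-values measure the spread between these arrays.

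The platform table gave 1 gene for 13513 probe sets, several for 503 and none for 8730, and 13436 matched TAIR10.1 by gene ID. The members and lists were chosen with earlier results of these data known. Named genes are the members, all measured members of the family lists, those measured among the 5 annotated genes on each side, and the 5 most and 3 least alike. Annotation words chose the further inhibitors. Genes whose symbols begin with PDF or LCR but name peptide deformylases or an F-box protein were dropped. Alternatives were other pseudocounts, filters, scalings and variance priors, a replicate block, fewer groups, single arrays left out and, added after the data were seen, a block for the spike-in ranges.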

Additional observations from a re-analysis of the deposited data

How the results depend on the processing

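In clv1-15 against Ler, PDF2.1 moved to -2.54 and -1.23 with pseudocounts of 1 and 64, and the difference between its CLE3ox and clv1-15 effects to 3.26 and 1.74. With the lowest 50% of probe sets left out, PDF2.1 had no fit. Without single arrays, AT2G38870 in line 12-1 against Col-0 ranged from -1.2376 to -1.0129, and PDF2.1 in line 17-3 against Col-0 from 0.6416 to 1.1337. AT2G38870 in line 17-3 against line 12-1 ranged from -0.0103 (without array 2 of line 12-1) to 0.2143. The difference between its CLE3ox and clv1-15 effects ranged from -0.1205 to 0.0311, turning positive without array 2 of line 12-1 (0.024) or array 3 of Col-0 (0.0311); in both cases the main value lies within its error of 0. Numbers of probe sets past the threshold ranged, without single arrays, from 205 (without array 3 of Col-0) to 376 in CLE3ox, from 25 to 54 in line 12-1 and from 186 to 424 in line 17-3, each against Col-0. They ranged from 13 to 46 for line 17-3 against line 12-1 (42 with all arrays, 20 with the 2 lines alone), from 1503 to 1887 for clv1-15 against Ler and from 1154 to 1752 for the difference of effects. Fewer samples were fitted in each. Centring each array on its median gave 1304 higher and 1042 lower in clv1-15, against 1096 and 1338. The replicate number paired no samples by the labels, and not every correlation of deviations between same-numbered arrays exceeded 0.1 (0.013, 0.187 and 0.101 for clv1-15 and Ler). The highest, 0.306, was between the arrays of lines 17-3 and 12-1. With Col-0, line 12-1 had 0.235 and -0.177 and line 17-3 had 0.176 and -0.185. Col-0 and Ler had 0.041, -0.115 and -0.036. With a replicate block, AT2G38870 had -1.07 in CLE3ox and -1.04 in clv1-15, PDF2.1 had 0.63 and -1.99, and 341 and 2390 probe sets passed; the line difference of LCR69 and the clv1-15 value of YLS5 lost their calls.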
